A study of Mus musculus with 14 samples.

Results

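The mouse mitochondrial genome carries 37 genes, and all 37 were listed in a table of 55401 genes counted in PiC neurons. They were taken as every row whose gene name starts with mt-. They comprised 13 protein-coding genes, 2 rRNA genes and 22 tRNA genes. Together they held 11016667 counts over 14 libraries, of which 72.2% fell on the protein-coding genes, 27.7% on the rRNA genes and 0.130% on the tRNA genes. A count was present in all 14 libraries for 21 of the 37 genes, and 32 passed the filter on low counts: the 13 protein-coding genes, both rRNA genes and 17 tRNA genes. All 37 names lay on the mitochondrial chromosome in the annotation used (GENCODE M21, build GRCm38, which is mm10), 28 on the plus and 9 on the minus strand.

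Each library was made from 1 tube of 4 to 5 EGFP-positive neurons of wild-type C57BL/6 mice that had received an rAAV. AAVretro-EGFP, a virus taken up by axon ends, had been placed in PrL or MeA, so that the labelled PiC cells were those projecting there (the abbreviations are kept as the labels give them). Cells were drawn into a micropipette and their polyadenylated RNA was read with SMART-Seq2, which primes on poly(A) tails and covers transcripts along their length. PiC-PrL neurons gave 4 libraries from females and 4 from males, and PiC-MeA neurons 3 from each sex. All 4 groups carried the virus, no uninjected group is described, and the labels give no age. The labels do not say that tubes came from separate animals, so p-values measure the spread between these samples only, which may be technical.

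Mitochondrial DNA is read from both strands as long precursors that run through many genes. The tRNA genes lie between the others and are cut out to release the rRNAs and mRNAs. Most of these mRNAs then receive short poly(A) tails, and their products are core subunits of respiratory chain complexes I, III and IV and of ATP synthase, whose other subunits come from nuclear genes. Neurons depend on this chain for the ATP spent on ion pumping and synaptic transmission.

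The members fell into 2 sequence classes that bear on how their reads can be counted. A stretch of chromosome 1 (chr1:24611535-24616197, minus strand) carries 7 annotated pseudogenes that match, at 99.71% identity or more, the mitochondrial interval from 6390 to 11042. The genes mt-Co2, mt-Atp8, mt-Atp6, mt-Co3, mt-Nd3 and mt-Nd4l lie wholly inside that interval, mt-Co1 and mt-Nd4 in part, and the other 5 protein-coding genes and both rRNA genes outside it. The first 60 bases are shown for mt-Nd3 (chrM:9459-9806, a complex I subunit) and mt-Co3 (chrM:8607-9390, a cytochrome c oxidase subunit), each above its nuclear copy, because they show how little separates the pairs. Capitals mark the only base at which the aligned 345 bases of mt-Nd3 and Gm28438 differ.
mt-Nd3: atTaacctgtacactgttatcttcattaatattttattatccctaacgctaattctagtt
Gm28438: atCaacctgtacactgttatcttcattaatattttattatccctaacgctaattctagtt
mt-Co3: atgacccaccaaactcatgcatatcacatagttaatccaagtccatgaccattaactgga
Gm28437: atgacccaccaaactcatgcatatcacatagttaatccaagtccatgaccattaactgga

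Counted from base 1 of mt-Nd3, the difference was T3C, and mt-Co3 and Gm28437 were identical over 783 bases. Gm28661 matched mt-Co2, Gm10925 matched mt-Atp6, Gm10222 matched mt-Nd4l and Gm28439 matched the first 876 bases of mt-Nd4, all without a difference. The edge of the copied interval lies within mt-Co1 (chrM:5328-6872), the catalytic subunit of cytochrome c oxidase. There the sequence is shown from base 1043 of the gene, with the part that runs into the copy in capitals.
mt-Co1: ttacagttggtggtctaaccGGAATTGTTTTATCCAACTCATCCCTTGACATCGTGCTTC
Gm29216: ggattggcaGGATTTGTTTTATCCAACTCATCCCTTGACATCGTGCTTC

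That copy differed from mt-Co1 by A1066T over 483 aligned bases. Of all stretches of 50 bases in a gene, the share also found in an annotated nuclear transcript was 100% for mt-Co2, 99.9% for mt-Co3, 99.5% for mt-Atp6, 98.8% for mt-Nd4l and 98.0% for mt-Nd3. It was 62.2% for mt-Nd4, 51.1% for mt-Co1, 8.19% for mt-Nd2, 7.61% for mt-Nd5 and 1.04% for mt-Rnr2, and 0% for mt-Nd1, mt-Nd6, mt-Cytb and mt-Rnr1. mt-Atp8 also gave 0%, because no transcript is annotated in the part of the nuclear stretch that faces it. The sources used here do not say how the counting treated reads that fit 2 places.

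The level of each gene per kilobase followed this division. Levels are CPM, that is counts divided by a library total scaled by the trimmed mean of M-values, times 1000000, divided by gene length in kilobases. The 6 genes wholly inside the copied interval had geometric means of 5.50 to 52.6 CPM per kilobase over the 14 libraries, and none exceeded 168 in any library. The other 9 protein-coding and rRNA genes had geometric means of 1015 to 13381 CPM per kilobase, and none was below 509 in any library. Neighbours on 1 precursor thus differed in recorded level: mt-Co1 stood at 5294 CPM per kilobase and mt-Co2, which starts 140 bases after its end, at 33.5. mt-Nd4l stood at 7.54 and mt-Nd4, whose first 7 bases overlap it, at 2075. The 5 tRNA genes inside the interval (mt-Ts1, mt-Td, mt-Tk, mt-Tg and mt-Tr) held 1 to 55 counts each over all libraries, against 7 to 8111 for the 17 outside. The part of the shared sequence in these low values was not tested.

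**Figure D1:**
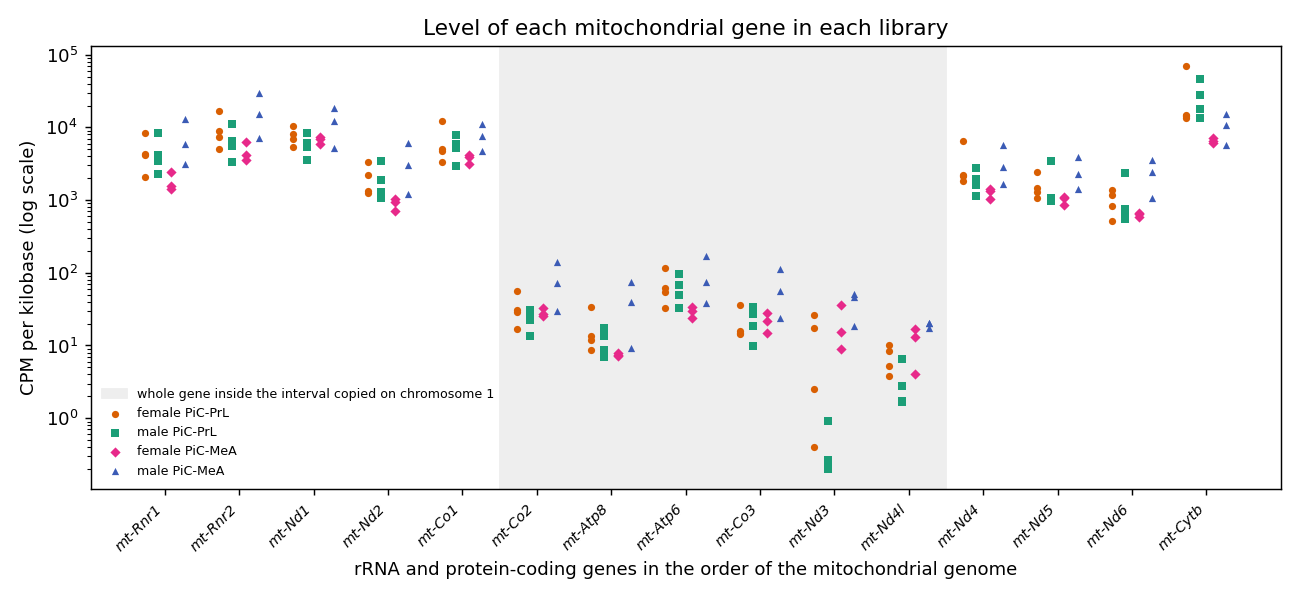
Level of the 2 rRNA and 13 protein-coding genes in each library, in genome order along the x axis and as CPM per kilobase on a log y axis. Each point is 1 library and its shape the group. The 6 genes in the shaded interval, copied on chromosome 1, lie at or below 168 CPM per kilobase in every library, and the others at or above 509.

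In descending order of level per kilobase, mt-Cytb (13381) was followed by mt-Rnr2 (7719), mt-Nd1 (7393), mt-Co1 (5294), mt-Rnr1 (3694), mt-Nd4 (2075), mt-Nd2 (1686), mt-Nd5 (1480) and mt-Nd6 (1015). Neighbours in this order were compared within each library, and a mean log2 difference larger than its SD over the 14 libraries was taken as beyond the spread. By this measure mt-Co1 and mt-Rnr1 (0.50 ± 0.43, higher in 12 of 14), mt-Rnr1 and mt-Nd4 (0.84 ± 0.42, 14 of 14) and mt-Nd5 and mt-Nd6 (0.56 ± 0.40, 12 of 14) differed. Over the 14 libraries the top of the order did not separate. mt-Cytb, cytochrome b of complex III, and mt-Rnr2 differed by 0.91 ± 1.05 (10 of 14), where the SD pools both projections. mt-Cytb lay above mt-Rnr2 in every PiC-PrL library. In PiC-MeA it lay above mt-Rnr2 in female replicates 2 and 3 and below it in the other libraries. mt-Rnr2 and mt-Nd1 differed by 0.08 ± 0.57 (8 of 14) and mt-Nd1 and mt-Co1 by 0.45 ± 0.51 (12 of 14). mt-Nd4 and mt-Nd2 (0.30 ± 0.36, 10 of 14) did not separate either, nor did mt-Nd2 and mt-Nd5 (0.21 ± 0.38, 9 of 14). mt-Nd6 is the only protein-coding gene on the minus strand. Its counts were 0.134 to 0.312 of those of mt-Nd5, its overlapping neighbour on the plus strand. The strand setting of the counting is not given, so reads of mt-Nd6 and reads antisense to it cannot be told apart.

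For the copied genes the counts were divided between the mitochondrial and the nuclear entry in proportions that differed by gene. The nuclear entry held a median of 49.9959% of the summed counts for mt-Atp6, 34.7% for mt-Co2, 44.8% for mt-Co3, 67.1% for mt-Nd4l and 90.1% for mt-Nd3. For mt-Nd4 and mt-Co1, which have unshared stretches, it held 0.142% and 0.107%. mt-Nd3 varied most. It had 11, 65, 130 and 2 counts in the libraries of female PiC-PrL, and those of Gm28438 were 241, 82, 59 and 255. In male PiC-PrL libraries mt-Nd3 had 5, 1, 1 and 1 counts and Gm28438 had 155, 198, 571 and 49. In female PiC-MeA libraries mt-Nd3 had 38, 71 and 194 counts and the copy 506, 279 and 72, and in male PiC-MeA libraries they had 82, 197 and 125 against 557, 1007 and 759. The mt-Nd3 entry was thus nearly empty in male PiC-PrL libraries while its copy was not, and the share of the pair on the nuclear entry ran from 27.1% to 99.8% between libraries. A further 10 annotated copies, between 90% and 99% identical, held 20 counts in total, on 3 of them.

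The share of all counts that fell on the mitochondrial genome varied within groups as well as between them. In female PiC-PrL libraries it was 5.68%, 12.2%, 4.57% and 5.21%, and in male PiC-PrL libraries 3.81%, 5.31%, 5.60% and 8.39%. Female PiC-MeA libraries had 3.95%, 3.54% and 3.29%, and male PiC-MeA libraries 4.80%, 9.23% and 15.3%. Every male PiC-MeA library thus lay above every female PiC-MeA library, while the ranges of the sexes overlapped in PiC-PrL. Group means were 6.90 ± 3.54% (SD, n = 4), 5.78 ± 1.91% (n = 4), 3.60 ± 0.330% (n = 3) and 9.76 ± 5.25% (n = 3) in the same order. With totals of 6132985 to 15392217 counts per library, the 95% Wilson interval of any such share reached at most 0.0285 percentage points to either side, which covers counting error only. The shares are a description and carry no test, and in libraries of several cells more transcripts per mitochondrion, more mitochondria per cell and a loss of other RNA cannot be told apart.

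**Figure D2:**
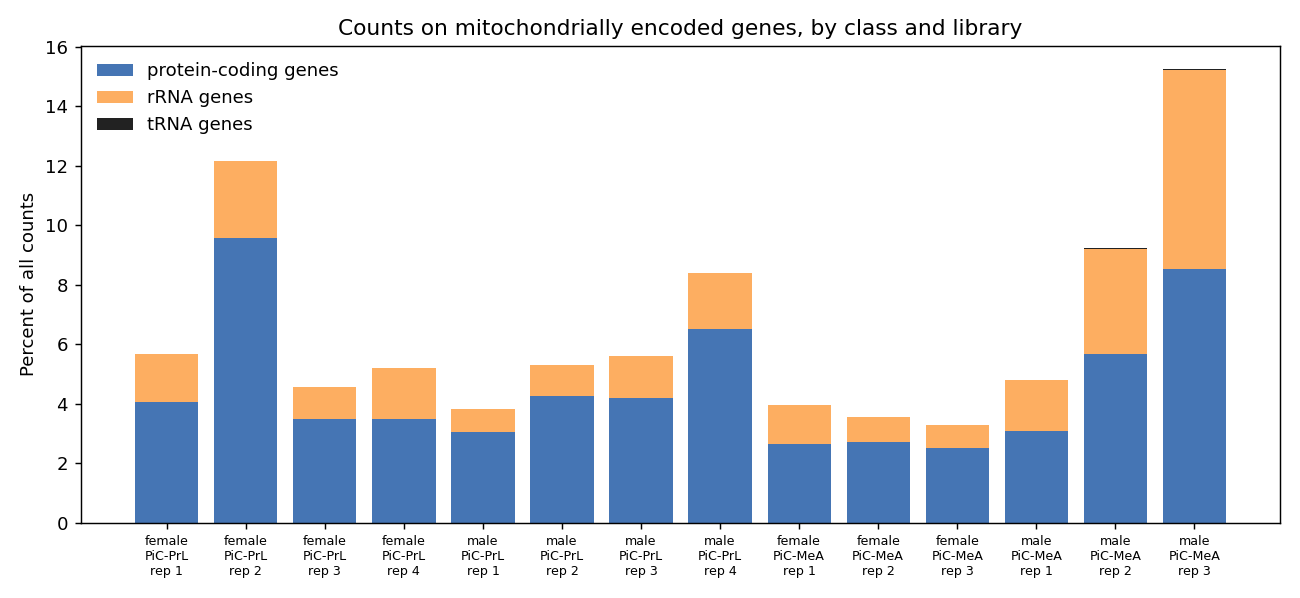
Percent of all counts on mitochondrially encoded genes in each of the 14 libraries (x axis), stacked by class on the y axis. Female PiC-MeA libraries hold 3.29% to 3.95% and male PiC-MeA libraries 4.80% to 15.3%; the tRNA part is too small to see.

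The 2 rRNAs, mt-Rnr1 of the small and mt-Rnr2 of the large mitochondrial ribosomal subunit, took a larger part of the mitochondrial counts in male PiC-MeA libraries. It was 35.5%, 38.2% and 44.0% there and 19.6% to 32.7% in the other 11 libraries, without overlap. In male PiC-PrL libraries the ratio of mt-Rnr2 to mt-Rnr1 counts was 2.18 to 2.67, and in all other libraries 3.0 to 4.83. The sexes thus did not overlap in this ratio in PiC-PrL (female libraries 3.0, 3.31, 4.06 and 3.45), and did in PiC-MeA (female 3.76 to 4.83, male 3.80 to 4.25). Both rRNA genes lie outside the copied interval and side by side, with mt-Tv between them.

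Among the mRNAs, mt-Cytb set the 2 projections apart. Its share of the counts on the 13 protein-coding genes was 42.5%, 63.0%, 45.9% and 43.6% in female PiC-PrL libraries and 51.2%, 64.9%, 48.3% and 59.8% in male PiC-PrL libraries. In PiC-MeA it was 27.9%, 30.6% and 34.0% in females and 25.4%, 25.6% and 23.0% in males. The lowest of 8 PiC-PrL libraries was above the highest of 6 PiC-MeA libraries, with means of 52.4 ± 8.94% (SD, n = 8) and 27.8 ± 4.01% (n = 6). Without female PiC-PrL replicate 2, which had the highest share of its group, the mean of that group moved from 48.8% to 44.0% and the projections still did not overlap. Within PiC-MeA every female library lay above every male library, and within PiC-PrL the sexes overlapped.

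Relative to each other, none of the other 12 mRNAs fully separated the projections. Of the 13 shares, 3 others did not overlap and were higher in PiC-MeA (mt-Co1, mt-Co2 and mt-Co3, the subunits of cytochrome c oxidase), and 9 overlapped. When mt-Cytb was left out and the shares were taken over 12 genes, all 12 overlapped, mt-Co1 with 36.5 ± 6.10% in PiC-PrL (n = 8) and 33.5 ± 3.13% in PiC-MeA (n = 6). The copied gene mt-Co2 overlapped narrowly, with a highest PiC-PrL share of 0.0967% and a lowest PiC-MeA share of 0.0946%. Its means were 0.0777 ± 0.0150% and 0.125 ± 0.0252%. Those of mt-Co3, also copied, were 0.0673 ± 0.0153% and 0.111 ± 0.0263%. Against mt-Nd1, a complex I subunit outside the copied interval, mt-Cytb had 2.15 to 9.32 times the counts in PiC-PrL libraries and 0.993 to 1.32 times in PiC-MeA libraries. Against mt-Co1 the ratio was 2.11 to 4.31 and 0.883 to 1.58. As a part of all counts, mt-Cytb took 1.52% to 6.03% in PiC-PrL libraries and 0.740% to 1.96% in PiC-MeA libraries, and only male PiC-MeA replicate 3 reached into the range of PiC-PrL. These shares use no scaling between libraries. mt-Cytb had no stretch of 50 bases in an annotated nuclear transcript.

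**Figure D3:**
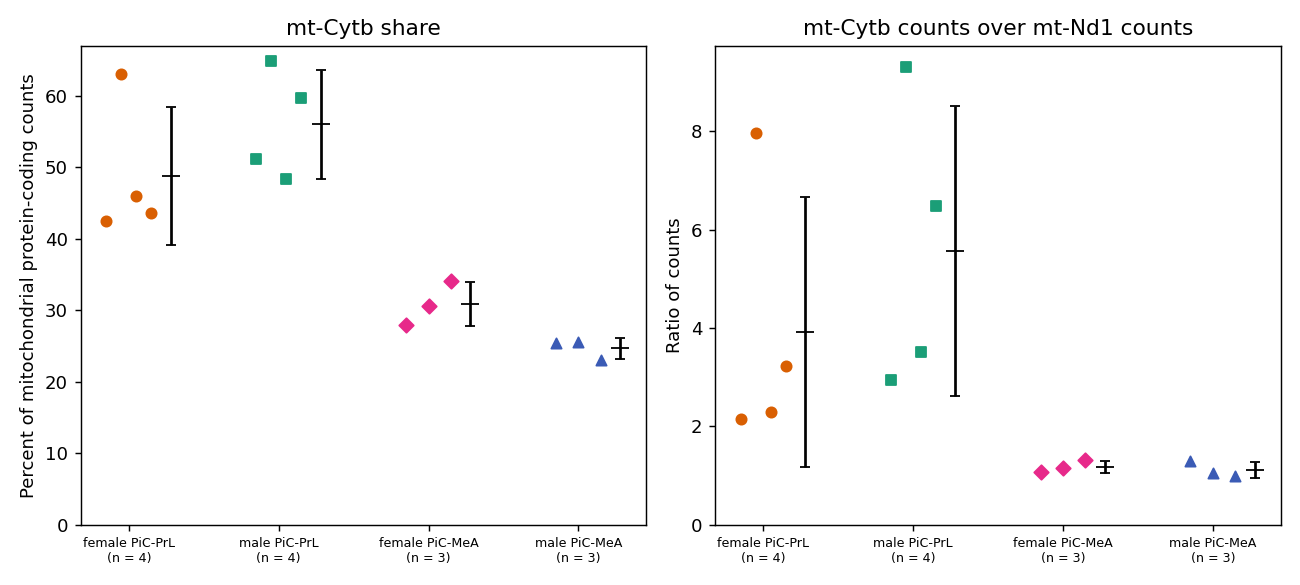
Left, mt-Cytb as percent of the counts on the 13 mitochondrial protein-coding genes; right, the ratio of mt-Cytb to mt-Nd1 counts. Points are libraries by group, and bars give the mean and SD. PiC-PrL libraries lie at 42.5% or more and PiC-MeA libraries at 34.0% or less, and the ratios do not overlap either.

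Levels were compared between groups with edgeR's quasi-likelihood test on all 14599 genes that passed the filter, with Benjamini-Hochberg adjustment at 0.05. No mitochondrial gene passed in any of the 5 comparisons. Of the 32 members in the test, 22 also pass the filter when the male PiC-MeA libraries are left out, namely the 13 mRNAs, both rRNAs and 7 tRNA genes. The other 10 (mt-Ta, mt-Th, mt-Ti, mt-Tl2, mt-Tr, mt-Ts2, mt-Tt, mt-Tv, mt-Tw and mt-Ty) entered only through that group, so that the filter itself selected them for high values in it. Counts of members in comparisons with male PiC-MeA are therefore given over the 22, beside the 11800 tested genes that pass in the same way. Values of other tools are given beside each count, because the tools differed in how many genes they called.

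In PiC-PrL neurons the sexes overlapped for every tested member, among them tRNA genes with few or no counts there. The share of all genes that overlapped in the same way is not given. Male minus female, 8 of 32 members were fitted above 0 and 23 below, with mt-Tr at 0 in both sexes, and the median was -0.42 on the log2 scale against -0.02 over all genes. mt-Cytb stood at 16711, 79795, 15229 and 16465 CPM in females and 15207, 32227, 20655 and 52338 CPM in males (log2 -0.09 ± 0.48 SE). Female replicate 2 and male replicates 2 and 4 were high, and the groups overlapped. mt-Rnr2 gave -0.53 ± 0.42, mt-Nd1 -0.39 ± 0.32 and mt-Nd4, a complex I subunit, -0.75 ± 0.41. The edgeR test called 0 members and 0.00% of all genes. At an unadjusted p under 0.05 it held 1 member, against 14.3% of all genes. That member was mt-Nd3 (log2 -4.75 ± 1.82, adjusted p = 0.283), and with the counts of its nuclear copy added the difference was 0.12. DESeq2's Wald test called 1 of 32 members (mt-Nd3) and 6.97% of genes, limma voom 0 members and 0.0548% of genes, and edgeR without the filter 1 of 37 (mt-Rnr2) and 0.136%. Without female PiC-PrL replicate 2 the median over members was 0.03.

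In PiC-MeA neurons the 13 mRNAs, both rRNAs and the 7 tRNA genes that pass the filter without male PiC-MeA had a higher fitted level in males, but none passed the test. The median difference over these 22 was 1.60 on the log2 scale. Over the 11800 genes chosen in the same way it was -0.12, and 46.0% were positive. mt-Rnr2 stood at 10015, 6630 and 5584 CPM in females and 11260, 24361 and 47056 CPM in males (log2 1.90 ± 0.50, adjusted p = 0.298). mt-Rnr1 stood at 2300, 1373 and 1485 CPM in females and 2956, 5735 and 12385 CPM in males (2.03 ± 0.54, adjusted p = 0.298). In both, male replicate 1 was just above the highest female library and replicate 3 was far above it. mt-Nd2, a proton-pumping subunit of complex I, stood at 1071, 991 and 729 against 1241, 3165 and 6236 CPM (1.93 ± 0.53). mt-Nd6, also of the membrane arm, stood at 333, 302 and 341 against 552, 1256 and 1842 CPM (1.90 ± 0.55). The other complex I genes outside or partly inside the copied interval were mt-Nd4 (1.44 ± 0.48), mt-Nd5 (1.34 ± 0.46) and mt-Nd1 (0.83 ± 0.37).

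mt-Cytb had the smallest fitted difference of the 32, at 7067, 8069 and 7553 CPM in females and 6529, 12414 and 17369 CPM in males (0.68 ± 0.56), and the groups overlapped. For cytochrome c oxidase, mt-Co1 gave 1.07 ± 0.42 at 6472, 5974 and 4776 against 7394, 11591 and 17104 CPM, and the copied genes mt-Co2 and mt-Co3 gave 1.51 ± 1.22 and 1.57 ± 1.30. The subunits of ATP synthase, mt-Atp6 and mt-Atp8, gave 1.69 ± 1.01 and 2.45 ± 1.72. The remaining complex I genes, mt-Nd3 and mt-Nd4l, gave 0.95 ± 1.81 and 0.78 ± 1.59. By complex, the medians were 1.34 over the 7 genes of complex I, 1.51 over the 3 of complex IV and 2.07 over the 2 of ATP synthase, beside the 0.68 of mt-Cytb.

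Every male library was above every female library for 15 of the 22 members, against 10.2% of the 11800 genes. The exceptions were mt-Nd1, mt-Co2, mt-Co3, mt-Nd3, mt-Cytb, mt-Tl1 and mt-Tc. Over the 32 members the filter let in, 23 lay so, against 17.5% of all genes, but this count holds the selection by the filter. An unadjusted p under 0.05 was held by 8 of the 22 against 5.31% of the 11800 genes, and by 11 of the 32 against 12.4% of all genes. That count of 11 was 6 without male PiC-MeA replicate 3 and 7 without female PiC-MeA replicate 2. The edgeR test called 0 members and 0.00% of genes. DESeq2's Wald test called 5 of 32 members and 5.32% of genes, limma voom 8 of 32 (7 of them tRNA genes) and 11.9%, and edgeR without the filter 8 of 37 and 0.161%. DESeq2 called both rRNA genes, mt-Nd2, mt-Nd6 and mt-Tq. Of voom's calls only mt-Nd6 and mt-Tq are among the 22, and the others entered the test only through male PiC-MeA. No member was called by all 3. Male replicate 3 carried much of the size, and it had the lowest total of all libraries (6132985 counts). Without it mt-Rnr2 gave 1.20, mt-Rnr1 1.27, mt-Nd2 1.18, mt-Nd1 0.32 and mt-Cytb 0.26, and the median over the 32 members was 1.41.

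**Figure D4:**
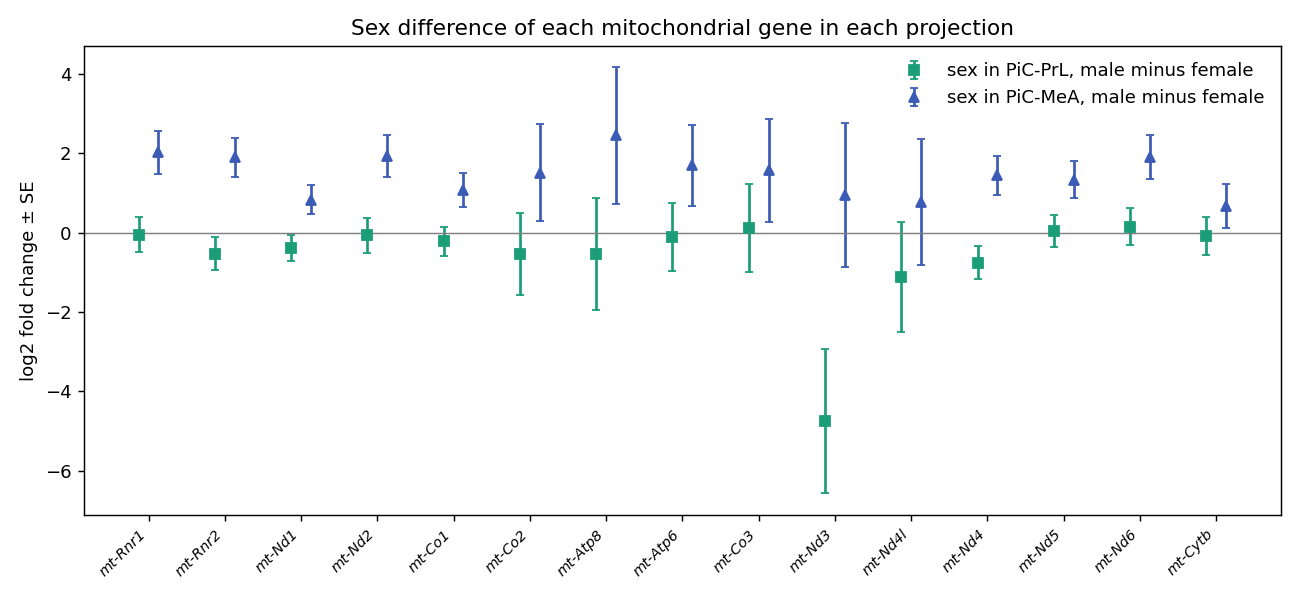
Fitted log2 difference of each mitochondrial rRNA and protein-coding gene between males and females, with its SE as bar, in PiC-PrL (squares) and PiC-MeA (triangles), genes in genome order. All 15 triangles lie above 0; most squares lie near 0, with mt-Nd3 lowest at -4.75.

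The male PiC-MeA libraries also differed from the female ones in measures that do not rest on these genes. They had at least 1 count for 18964, 20014 and 19692 genes, against 12479 to 14908 in the other 11 libraries. Their totals were the lowest, at 10572618, 10515270 and 6132985 counts, against 11755389 to 15392217 in the others. The pan-neuronal marker Snap25 was high in all libraries. The summed level of 9 astrocyte markers was 878 to 1354 CPM in male and 451 to 628 CPM in female PiC-MeA libraries, with 9 of 9 and 3 to 5 of 9 genes at 10 counts or more. Single astrocyte markers differed in this. Aqp4 was at 0 in all 3 female libraries and at 471, 1809 and 383 counts in the males. Gfap overlapped, at 50.7, 34.0 and 19.4 CPM in female and 30.4, 29.1 and 24.8 CPM in male libraries. The sum of 8 inhibitory neuron markers was 140 to 1876 against 41.5 to 120 CPM. That of 7 endothelial and mural markers was 28 to 121 against 0.529 to 2.51 CPM, with the endothelial gene Cldn5 at 0 in all 14 libraries. Sums of oligodendrocyte, microglia, red blood cell, excitatory and nuclear RNA markers overlapped between these 2 groups, but single excitatory markers in male replicates 2 and 3 lay on opposite sides of the female range. Slc17a6 stood at 0.237, 243 and 562 CPM in male and 0, 0.0756 and 10.8 CPM in female PiC-MeA libraries, and Camk2a at 1670, 521 and 159 CPM in male and 1197, 1210 and 844 CPM in female ones. In PiC-PrL the astrocyte sums were 862 to 5499 CPM, the inhibitory sums 129 to 5299 CPM and the endothelial and mural sums 2.12 to 139 CPM. The male PiC-MeA sums lay within these ranges, so by their sums these libraries stood apart from female PiC-MeA only. By the number of endothelial and mural markers at 10 counts or more, they stood apart from every group. It was 4 to 6 of 7 there, 1 in female PiC-PrL, 1 to 2 in male PiC-PrL and 0 to 1 in female PiC-MeA. Flt1, an endothelial marker of this list, had 54, 100 and 272 counts in male PiC-MeA libraries and at most 11 in any other. The part of these features in the mitochondrial values was not tested. When a library's count of detected genes was added to the model, the fitted median over members was 4.16, with 26 of the 32 positive. That count did not overlap between male PiC-MeA and the other libraries, so this fit cannot separate it from that group.

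Between projections in males, mt-Cytb had the opposite sign to the other mRNAs and to the rRNAs. PiC-MeA minus PiC-PrL, its difference was -1.31 ± 0.54 in males (adjusted p = 0.149), with a mean of 30107 ± 16432 CPM (SD, n = 4) in PiC-PrL and 12104 ± 5426 CPM (n = 3) in PiC-MeA, and the groups overlapped. The other 12 protein-coding genes and both rRNA genes had positive values, among them mt-Rnr2 (1.39 ± 0.45, adjusted p = 0.0871), mt-Nd1 (1.02 ± 0.34, adjusted p = 0.0927) and mt-Nd6 (1.12 ± 0.50). Of the 22 members that pass the filter without male PiC-MeA, 20 were positive, with a median of 1.07 against -0.17 over the 11800 genes. Every PiC-MeA library was above every PiC-PrL library for 3 of the 22 (mt-Nd3, mt-Nd4l and mt-Tq), against 10.8% of those genes. With the 10 tRNA genes that entered only through male PiC-MeA, 7 more lay so (in all 10 of 32, against 19.2% of all genes), a count that holds the selection by the filter. The edgeR test called 0 of 32 members and 0.603% of genes (88, of which 10 were higher in PiC-MeA). An unadjusted p under 0.05 was held by 5 of the 22 against 12.6% of the 11800 genes, and by 10 of the 32 (6 without male PiC-MeA replicate 3) against 22.2% of all genes. DESeq2 called 5 members and 13.9% of genes, limma voom 8 and 17.8%, edgeR without the filter 3 of 37 (mt-Cytb, mt-Nd1 and mt-Rnr2) and 0.570%, and edgeR on these 2 groups alone 3 (mt-Tr, mt-Tt and mt-Tv) and 7.55%. Of voom's calls only mt-Nd3 is among the 22, and none of the 3 called on these 2 groups alone is. DESeq2's calls are among the 22 except mt-Tt. Without male PiC-MeA replicate 1, edgeR called mt-Nd1 and 0.860% of genes. Without male PiC-MeA replicate 3, mt-Nd1 gave 0.52 and mt-Rnr2 0.71.

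In females the same comparison shares no library with that in males. mt-Cytb was again lower in PiC-MeA, at 7563 ± 501 CPM (SD, n = 3) against 32050 ± 31837 CPM (n = 4), and here the groups did not overlap (log2 -2.08 ± 0.56, unadjusted p = 0.00159, adjusted p = 0.403). Without female PiC-PrL replicate 2 the difference was -1.09. mt-Nd4 (-1.32 ± 0.46), mt-Rnr1 (-1.39 ± 0.51), mt-Nd2 (-1.19 ± 0.49) and mt-Rnr2 (-1.03 ± 0.46) were also lower, and mt-Nd1 was not beyond its error (-0.20 ± 0.34). Those 4 and mt-Cytb held an unadjusted p under 0.05, against 11.1% of all genes. Without female PiC-PrL replicate 2 only 1 member did, with mt-Nd4 at -0.72 and mt-Rnr2 at -0.62, and without female PiC-MeA replicate 3 it was 3. Of 32 members 7 were positive and 24 negative, with a median of -0.76 against -0.06 over all genes. The edgeR test called 0 members and 0.00% of genes, DESeq2 1 (mt-Cytb) and 4.30%, limma voom 0 and 0.212%, and edgeR without the filter 6 of 37 and 0.165%.

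The difference between the sex differences, PiC-MeA minus PiC-PrL, was positive for the 22 members that pass the filter without male PiC-MeA, with a median of 2.02 against -0.07 over the 11800 genes. It was 2.42 ± 0.64 for mt-Rnr2 and 2.19 ± 0.63 for mt-Nd4 (adjusted p = 0.152 for both), 2.08 ± 0.70 for mt-Rnr1, 2.00 ± 0.68 for mt-Nd2 and 0.77 ± 0.74 for mt-Cytb. The edgeR test called 0 members and 0.00% of genes. An unadjusted p under 0.05 was held by 9 of the 22 against 10.3% of the 11800 genes, and by 13 of the 32 against 15.6% of all genes. That count of 13 was 4 without male PiC-MeA replicate 3, where mt-Rnr2 gave 1.75, mt-Nd2 1.27 and mt-Rnr1 1.34, 7 without female PiC-MeA replicate 2, and 8 without female PiC-MeA replicate 1 or male PiC-PrL replicate 2. DESeq2 called 3 (mt-Rnr2, mt-Tq and mt-Nd3) and 7.92% of genes, limma voom 0 and 4.40%, and edgeR without the filter 7 of 37 and 0.301%.

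The tRNA genes gave few counts. Mature tRNAs are short and end in CCA rather than in a poly(A) tail. Of the 22, mt-Tp (chrM:15356-15422, minus strand, tRNA for proline) held 8111 of 14369 counts and mt-Tm (chrM:3845-3913, methionine) held 2104. They are shown as transcribed, 5′ to 3′, with mt-Tr (chrM:9808-9875, arginine), mt-Tv (chrM:1025-1093, valine) and mt-Tt (chrM:15289-15355, threonine), which had most of their counts in male PiC-MeA libraries. Sequences are from the GENCODE M21 transcripts.
mt-Tp: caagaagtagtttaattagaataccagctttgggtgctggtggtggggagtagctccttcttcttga
mt-Tm: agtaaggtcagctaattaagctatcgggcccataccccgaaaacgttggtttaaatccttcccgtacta
mt-Tr: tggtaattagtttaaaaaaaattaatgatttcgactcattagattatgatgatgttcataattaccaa
mt-Tv: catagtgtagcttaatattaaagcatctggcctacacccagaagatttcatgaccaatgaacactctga
mt-Tt: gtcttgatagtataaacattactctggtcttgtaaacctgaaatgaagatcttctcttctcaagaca

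A count was found for 20 of 22 tRNA genes in each male PiC-MeA library and for 9 to 17 in the other libraries. Detection was wider for genes of any kind there, at 18964 to 20014 of 55401 genes against 12479 to 14908 in the other libraries. Summed tRNA counts made up 0.192% to 0.255% of the mitochondrial counts in male PiC-MeA libraries and 0.0743% to 0.137% elsewhere, without overlap. mt-Tp had 347, 1168, 299 and 590 counts in female PiC-PrL libraries, 258, 360, 504 and 788 in male PiC-PrL, 465, 418 and 305 in female PiC-MeA and 575, 885 and 1149 in male PiC-MeA libraries. It made up 44.5% to 73.7% of the tRNA counts of a library. In PiC-MeA every male library was above every female library in CPM (log2 1.67 ± 0.99, adjusted p = 0.587), and in PiC-PrL the sexes overlapped.

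mt-Tr, which lies inside the copied interval, had 0 counts in 11 libraries and 10, 11 and 34 in male PiC-MeA libraries. Its mean there was 2.2 ± 2.35 CPM (SD, n = 3), at least 9.93-fold higher than female PiC-MeA and at least 9.53-fold higher than male PiC-PrL libraries, with 3 counts per library taken as the most that a 0 allows. Without male PiC-MeA replicate 3 the mean was 0.841 CPM and the bounds were 3.80-fold and 3.65-fold. mt-Tv had 16, 13 and 16 counts in male PiC-MeA libraries, 1, 0 and 3 in female PiC-MeA, 0 in all 4 male PiC-PrL and a single count in female PiC-PrL replicate 4. Its male PiC-MeA level was at least 6.69-fold that of male PiC-PrL. mt-Tt had 75, 24 and 21 counts in male PiC-MeA libraries and at most 7 in any other. In edgeR's fit over 14 libraries none of these passed (lowest adjusted p = 0.0790, mt-Tt and mt-Tv between projections in males). On male PiC-PrL and male PiC-MeA alone edgeR called all 3, and limma voom called all 3 in both comparisons. All 3 are among the genes that entered the test only through male PiC-MeA. At the other end, mt-Td had 1 count in all and mt-Tf, the first gene in the numbering of the sequence, had 7, all in male PiC-MeA replicate 3. Several tRNA genes touch or overlap their neighbours, and reads of uncut precursors cannot be told apart from tRNA in these counts.

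The nuclear-encoded part of the respiratory chain showed the opposite order to the mitochondrial part in the comparisons with male PiC-MeA. Of 73 tested nuclear genes of complexes I to V, 7 were positive and 66 negative for sex in PiC-MeA (median -0.74), and none passed. All 73 pass the filter without male PiC-MeA. Over the 11800 genes that pass in the same way 46.0% were positive and the median was -0.12. Between projections in males 6 were positive and 67 negative (median -1.10), against 45.4% positive and a median of -0.17 over the 11800 genes. In this comparison 4 of 73 passed, beside the 0.603% of all genes called, all lower in PiC-MeA: Sdhb of complex II (log2 -2.12 ± 0.34, adjusted p = 0.00670), Uqcrq of complex III (-2.10 ± 0.38, adjusted p = 0.0190) and the complex I subunits Ndufa12 (-2.08 ± 0.39, adjusted p = 0.0216) and Ndufb8 (-2.41 ± 0.51, adjusted p = 0.0391). None of the 4 was called with detected genes as a covariate, where 0 of 14599 genes were, or without male PiC-MeA replicate 2 (21 of 15739 genes). Sdhb alone was called without male PiC-PrL replicate 2, male PiC-PrL replicate 4 or male PiC-MeA replicate 3. The count called was 11 without male PiC-MeA replicate 1 (0.860% of all genes) and 9 without female PiC-MeA replicate 3 (139 of 16692 genes). It was 31 by DESeq2 (13.9% of all genes) and 27 by voom (17.8%). All of these nuclear genes were lower in PiC-MeA. In females the projections were even, with 35 positive and 38 negative, and in PiC-PrL 64 were positive and 9 negative for sex (median 0.35), where none passed.

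Per library, these nuclear genes took 1.38% to 1.73% of counts in female PiC-PrL, 1.88% to 1.95% in male PiC-PrL, 1.66% to 2.06% in female PiC-MeA and 1.5%, 1.39% and 0.915% in male PiC-MeA. The mitochondrial share was 3.20, 6.65 and 16.7 times that nuclear share in male PiC-MeA libraries and 1.91 to 1.99 times in female PiC-MeA libraries, without overlap. In PiC-PrL the ratio was 2.79 to 8.82 in females and 2.03 to 4.4 in males, with overlap. Female PiC-PrL replicate 2, which had the second highest mitochondrial share, had the lowest nuclear share of its group.

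**Figure D5:**
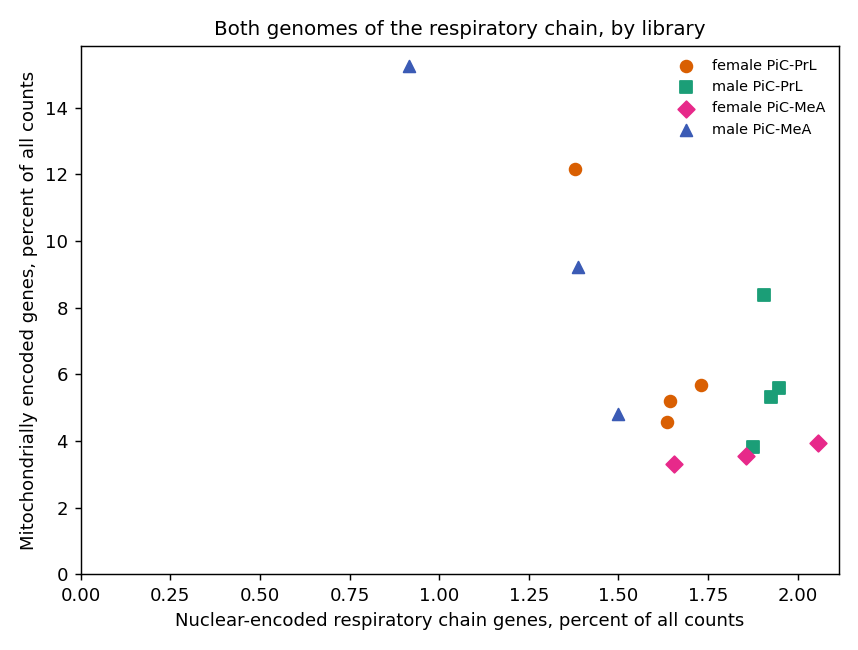
Each point is 1 library: percent of all counts on nuclear-encoded respiratory chain genes (x axis) against percent on mitochondrially encoded genes (y axis), shapes by group. The 3 male PiC-MeA libraries lie at 0.915% to 1.5% and 4.80% to 15.3%, and the 3 female ones at 1.66% to 2.06% and 3.29% to 3.95%.

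Nuclear genes that serve mitochondrial expression gave no call in edgeR's fit over 14 libraries. That fit called 0.603% of all genes between projections in males and 0.00% in the other comparisons. Of 70 tested proteins of the mitochondrial ribosome, which the 2 rRNAs form with them, 7 were positive and 63 negative for sex in PiC-MeA (median -0.85) and 5 and 65 between projections in males (median -1.10). Over all 14599 tested genes 53.6% and 53.4% were positive, with medians of 0.12 and 0.16. Those shares hold the genes that entered only through male PiC-MeA. Tfam, which packages mitochondrial DNA and starts its transcription, stood at 40.2 ± 26.9, 62.7 ± 86.0, 17.1 ± 15.5 and 33.1 ± 7.59 CPM in female PiC-PrL, male PiC-PrL, female PiC-MeA and male PiC-MeA libraries. Polrmt, the mitochondrial RNA polymerase, stood at 21.5 ± 26.2, 7.97 ± 10.8, 3.58 ± 6.14 and 2.86 ± 3.10 CPM. Lrpprc, which with Slirp stabilises mitochondrial mRNAs, stood at 62.9 ± 34.4, 28 ± 22.9, 36.8 ± 25.4 and 46.3 ± 16.1 CPM. Slirp itself stood at 2.51 ± 2.2 CPM in male PiC-MeA and 5.15 ± 1.86 CPM in female PiC-MeA libraries. Ppargc1a, a coactivator of mitochondrial biogenesis, stood at 80.4 ± 71.1 against 55.4 ± 48.4 CPM. The smallest adjusted p of the 5 genes over the 5 comparisons was 0.613.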

How the data were processed

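The authors deposited 1 table of raw read counts per gene for 14 SMART-Seq2 libraries. Per the submitters' processing notes, Trimmomatic 0.39, HISAT2 2.2.1, SAMtools and featureCounts 2.0.1 were used with build mm10. Strand setting, read length, annotation release and the treatment of reads that fit several places or genes are not stated in the labels or processing notes, and they decide how counts divide between mitochondrial genes, their neighbours and nuclear copies.

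Library groups came from the labels. Counts were fitted as deposited, over all genes and all 14 libraries, with edgeR 4.0.16 in R 4.3.3 (robust quasi-likelihood; TMM; filterByExpr at its defaults, min.count 10 and min.total.count 15; Benjamini-Hochberg over 14599 genes, threshold 0.05). The script was tested on simulated counts. Members and lists were chosen with earlier results of these data known. All protein-coding and rRNA members could be named, tRNA genes where they passed the filter or held the largest tRNA counts (mt-Td and mt-Tf were named after their values were seen), and up to 4 called genes per nuclear list plus 5 fixed regulators.

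Of 55401 gene identifiers 54349 were in GENCODE M21. Nuclear copies were found by BLAST 2.17.0 against its transcripts (at least 90% identity over 100 bases), and that search, the addition of copy counts and the counts over members that pass the filter without male PiC-MeA were chosen after seeing the data. Other alternatives were DESeq2 1.42.0, limma voom 3.58.1, other scalings and filters, subsets of groups, detected genes as a covariate, a replicate block and each library left out. Same-numbered libraries of different groups did not deviate together (19 pairs, correlation -0.0388 to 0.0407), so numbers were not taken as pairs.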

Additional observations from a re-analysis of the deposited data

Results flagged for a closer look

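In the 2 groups of 4 libraries, 28 quantities were examined for a library far from the other 3 by Dixon's gap-to-range ratio at the 95% level, and 16 of 56 such groups held one. Chance gives about 1 in 20, and the quantities share libraries and are not independent.

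Female PiC-PrL replicate 2 was the high library in 8 of these. It had a mitochondrial share of 12.2% against 4.57% to 5.68% in the other 3, a protein-coding share of all counts of 9.56% against 3.50% to 4.05%, and mt-Cytb at 63.0% of the mRNA counts against 42.5% to 45.9%. Its mt-Cytb level was 79795 CPM against 15229 to 16711, mt-Nd4 8835 against 2535 to 3074 and mt-Co3 28.2 against 11.4 to 12.6. Among tRNA genes mt-Tm stood at 52.2 CPM against 7.16 to 12.6 and mt-Tq at 10.8 against 1.21 to 2.49.

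Male PiC-PrL replicate 4 was high in mt-Nd5 (6197 CPM against 1757 to 1942), mt-Nd6 (1235 against 282 to 389), mt-Tm (18.7 against 5.96 to 8.13), mt-Tn (9.42 against 2.36 to 3.21) and mt-Tq (5.08 against 0.570 to 1.32). Male PiC-PrL replicate 2 had mt-Te at 4.48 CPM against 2.18 to 2.57. Male PiC-PrL replicate 1 had mt-Nd3 at 0.321 CPM against 0.0695 to 0.0924, which is 5 counts against 1 in each of the others. In female PiC-PrL replicate 4 the ratio of mt-Nd6 to mt-Nd5 counts was 0.312 against 0.134 to 0.161.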

How the results depend on the processing

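Over 26 settings, 973 of 978 values of 39 named member comparisons kept their direction. The 5 that reversed were, with detected genes as a covariate, mt-Nd3 (-2.87) and mt-Nd4l (-0.017) for sex in PiC-MeA and mt-Cytb (4.78) between projections in males; with nuclear copies added, mt-Nd3 for sex in PiC-PrL (0.12); and without female PiC-PrL replicate 2, mt-Cytb in the difference between the sex differences (-0.22, the lowest of -0.22 to 1.18 with each library left out). Taken in the order sex in PiC-PrL, sex in PiC-MeA, projection in females, projection in males and difference between the sex differences, edgeR called 0 members in each; without the filter it called 1, 8, 6, 3 and 7, and DESeq2 called 1, 5, 1, 5 and 3. Voom called 8 members for sex in PiC-MeA and 8 between projections in males, most of them tRNA genes that entered only through male PiC-MeA. Between projections in males the groups compared alone gave 3 and the fit without male PiC-MeA replicate 1 gave 1. With detected genes as a covariate the medians were 4.16, 4.07 and 5.04 for sex in PiC-MeA, projection in males and the difference. That covariate did not overlap between male PiC-MeA (18964 to 20014 genes) and the other libraries (12479 to 14908). This fit therefore cannot separate the covariate from that group, and no conclusion is drawn from its medians. The SE of mt-Nd3 for sex in PiC-MeA grew from 1.81 to 6.78, and the fit called 0 of 14599 genes in each comparison. With each library left out, medians ranged from -0.80 to 0.03, 1.41 to 2.12, -1.15 to -0.60, 0.89 to 1.85 and 1.73 to 2.55 in the same order, and calls from 0 to 0 except 0 to 1 between projections in males. Mitochondrial shares then ranged from 5.15% to 7.68%, 4.91% to 6.44%, 3.42% to 3.75% and 7.01% to 12.2% in female PiC-PrL, male PiC-PrL, female PiC-MeA and male PiC-MeA libraries. The mt-Cytb share ranged from 44.0% to 50.9%, 53.1% to 58.6%, 29.2% to 32.3% and 24.2% to 25.5%. The replicate block gave 0 called members in all 5 comparisons, with medians of -0.47, 1.80, -0.53, 1.74 and 2.09. It left Sdhb as the only nuclear respiratory gene called between projections in males, against 4 in the main fit. In all, the block fit called 38 of 14599 genes there. Over the 22 members that pass the filter without male PiC-MeA the medians were -0.38, 1.60, -0.78, 1.07 and 2.02. Limits are the 3 to 4 libraries per group, the few counts of most tRNA genes, and the interval matched on chromosome 1, in which 6 mRNAs lie wholly.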
